A study of Mus musculus with 8 samples.

Results

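At 10 mouse genes, Col26a1, Myl10, Col6a6, Pax7, Tbc1d16, Elfn1, Dab2ip, Tha1, Adgrg3 and Cplx2, stretches of chromatin held many accessible regions whose ATAC-seq signal fell after dTAG-13, the compound used to degrade EBF1. The genes were chosen by their measured log2 fold changes and calls, because many of their regions fell in both cell lines studied, so the number of falls and their agreement between the lines describe the choice and are not evidence of anything further. A region was given to the nearest protein-coding gene span of RefSeq GRCm38.p6 when its centre lay within 100 kb, which gave these genes 134 of the 54239 regions listed for EBF1-dTAG_C and, for EBF1-dTAG_N, 139 of 55193. Col26a1 held 9 regions that fell in both lines, counted over the EBF1-dTAG_C regions, more than any other gene. Tbc1d16 held 8, Myl10 held 7, Dab2ip and Cplx2 held 6 each, Col6a6, Pax7, Elfn1 and Tha1 held 5 each, and Adgrg3 held 4. The choice was not a complete ranking, since 3 other genes also held 7, 5 others held 6, 18 others held 5 and 36 others held 4.

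ATAC-seq, in which a transposase cuts accessible DNA and tags it for sequencing, was applied to mouse pro-B cells made permanent with Abelson murine leukaemia virus (A-MuLV). The cell's own EBF1 had been exchanged for a modified form in each line, EBF1-dTAG_C and EBF1-dTAG_N, whose names refer to the dTAG degron, the tag through which dTAG-13 sends a protein to degradation. The controls thus carry the modified EBF1 as well. Each line had 2 libraries after 6 h of DMSO, the solvent, and 2 after 6 h of 0.5 uM dTAG-13, with 50000 cells per library and 8 libraries in all. The titles name the control time as 0h, whereas the treatment label gives 6 h of DMSO, which was followed. Nothing in the labels says how many clones a line comes from, and EBF1 protein was not measured in these files. A peak list held 40440 to 42139 peaks in the EBF1-dTAG_C DMSO libraries and 34202 to 34382 after dTAG-13, so that the mean fell by 16.9%. In EBF1-dTAG_N the lists held 40166 to 41613 peaks with DMSO and 35851 to 39721 after dTAG-13, so that the mean fell by 7.59%. Read depth is not given in the files. Of 10 B lineage markers 8 had a peak within 1 kb of a gene end in every library, against 1 of 6 T lineage, 0 of 6 myeloid and 0 of 4 erythroid markers, and Dntt, a B and T progenitor marker, had none.

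EBF1 is a transcription factor that opens chromatin at B lineage genes and holds progenitors in that lineage together with PAX5 and E2A. Accessible regions away from gene starts are often enhancers, and several of them can lie along a single gene, inside its introns or beside it. The assay reads whether DNA is open and not whether the gene is transcribed, and assignment to the nearest gene does not say which gene a region acts on. In libraries made from many cells, fewer cells with an open region and less opening in each cell cannot be told apart. The proteins of the 10 genes have unlike roles. Col26a1 and Col6a6 encode collagens of the extracellular matrix. Myl10 encodes a regulatory light chain of myosin, Tbc1d16 an activator of Rab GTPases in vesicle traffic, Dab2ip an activator of Ras GTPases, and Cplx2 a complexin, which binds SNARE complexes at vesicle release. Elfn1 and Adgrg3 encode membrane proteins, the first a leucine-rich repeat protein of synapses and the second an adhesion G protein-coupled receptor. Pax7 encodes a transcription factor of muscle stem cells and neural crest, and Tha1 a threonine aldolase. Calling all of them unrelated to the lymphoid lineage goes against the gene names themselves, since the reference lists PLRLC, for precursor lymphocyte-specific regulatory light chain, as a synonym of Myl10.

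The gene starts themselves were mostly not where accessibility was found. The RefSeq table held promoter windows (250 bases before to 50 after an annotated start) for 8 of the 10 genes, 13 windows in all, and none for Col26a1 and Tbc1d16. No window overlapped a region of the EBF1-dTAG_C table and 2 overlapped a region of the EBF1-dTAG_N table, whereas 31.6% and 31.5% of all 32851 windows did. The Cplx2 window overlapped a falling region, chr13:54302279-54302597, with a log2 fold change of -0.90 in the authors' deposited table. A Myl10 window overlapped chr5:136693499-136693648, with -0.10 in the authors' deposited table, which was not called. Both are shown because they alone met a region. That of Tha1 is shown because a falling region lay closest to its start, 1356 bases away in EBF1-dTAG_C, and that of Col6a6 because its start lies between falling regions. The 250 bases before the start are given 5′ to 3′ on the strand of the gene, from RefSeq GRCm38.p6, at chr13:54302306-54302555 (plus) for Cplx2, chr5:136693426-136693675 (plus) for Myl10, chr11:117873527-117873776 (minus) for Tha1 and chr9:105828086-105828335 (minus) for Col6a6. Capitals mark matches to CCCNNGGG, the core of the palindrome that EBF1 is known to bind.
Cplx2: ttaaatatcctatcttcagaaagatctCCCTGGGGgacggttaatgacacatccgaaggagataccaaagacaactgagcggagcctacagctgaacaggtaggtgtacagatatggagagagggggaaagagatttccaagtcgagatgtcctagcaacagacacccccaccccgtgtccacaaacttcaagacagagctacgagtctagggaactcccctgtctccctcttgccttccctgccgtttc
Myl10: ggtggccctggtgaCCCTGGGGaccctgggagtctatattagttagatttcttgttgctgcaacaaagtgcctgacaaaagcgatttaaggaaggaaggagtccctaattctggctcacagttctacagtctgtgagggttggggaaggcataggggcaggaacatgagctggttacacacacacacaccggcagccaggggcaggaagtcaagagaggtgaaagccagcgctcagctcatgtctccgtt
Tha1: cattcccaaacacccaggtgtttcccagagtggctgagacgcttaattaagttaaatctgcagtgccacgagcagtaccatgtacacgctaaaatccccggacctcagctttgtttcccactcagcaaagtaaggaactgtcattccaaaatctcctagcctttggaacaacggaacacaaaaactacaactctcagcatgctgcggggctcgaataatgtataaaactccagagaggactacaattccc
Col6a6: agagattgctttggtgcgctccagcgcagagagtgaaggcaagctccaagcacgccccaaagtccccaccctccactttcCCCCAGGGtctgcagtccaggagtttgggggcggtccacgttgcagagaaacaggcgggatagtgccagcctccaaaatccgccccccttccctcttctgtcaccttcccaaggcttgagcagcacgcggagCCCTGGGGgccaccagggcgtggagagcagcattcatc
CCCNNGGG reads alike on both strands. The longer palindrome has a T before this core and an A after it, so every match to it is also a match to the core. Over the whole windows CCCNNGGG was found in 6 of 13, in 5 genes, against 13.7% of all windows. The longer palindrome was found in 0 of 13, against 0.904% of all windows. On either strand CAGCTG, an E-box of E2A, was in 2 windows (16.3% of all), TGTGGT, a RUNX core, in 1 (16.8% of all) and AGGAAG, an ETS core, in 5 (35.4% of all). These matches describe letters in the windows and no binding. The sequences of the falling regions themselves were not used here.

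Falls far outnumbered rises at these genes in both lines. A region was called changed at an adjusted p under 0.05 in the authors' deposited table. In EBF1-dTAG_C 62 of 134 regions (46.3%) fell, where 6.62% of all regions fell, and 0 rose, where 0.308% of all rose. By the same deposited edgeR test, 0 of these regions had a positive fold at an unadjusted p under 0.05. Of the 139 regions of EBF1-dTAG_N 10 did, and the share over all regions was not counted at this threshold. In EBF1-dTAG_N 83 of 139 regions (59.7%) fell against 18.5% of all regions, and 6 (4.32%) rose against 18.8%. Centred on the median of each table, 65 fell and 0 rose in EBF1-dTAG_C (7.39% and 0.162% of all regions), and 87 fell and 4 rose in EBF1-dTAG_N (20.8% and 7.98% of all). These shares follow from how the genes were picked. Falls in both lines made up 44.8% of the regions in EBF1-dTAG_C (6.35% of all regions) and 44.6% in EBF1-dTAG_N (6.23% of all).

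Falls at these genes had a lower median log2 fold change than all falls in EBF1-dTAG_C, and nearly the same median in EBF1-dTAG_N. Their median log2 fold change in the authors' deposited table was -2.62 in EBF1-dTAG_C, with a range of -7.54 to -0.81, and -2.26 over all falls of that table. In EBF1-dTAG_N the median in the authors' deposited table was -2.07, with a range of -5.41 to -0.23, and -2.04 over all falls. At least 2-fold falls numbered 59 of 62 and 65 of 83, and the share among all falls was not counted. Falling regions were more abundant than the others at these genes, with a median of their mean abundance, by the authors' deposited tables, of 3.72 log2 CPM against 2.34 for the other regions of EBF1-dTAG_C. In EBF1-dTAG_N the same medians of the authors' deposited table were 4.26 against 2.37. Their median width was 361.5 against 265.5 bases and 386 against 257.5 bases. Greater abundance makes a change easier to call, and its part in this was not tested. Of the 72 regions without a call in EBF1-dTAG_C, 50 had negative folds and 22 positive ones. Of the 50 in EBF1-dTAG_N 24 were negative and 26 positive, and the shares over all uncalled regions were not counted.

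**Figure D1:**
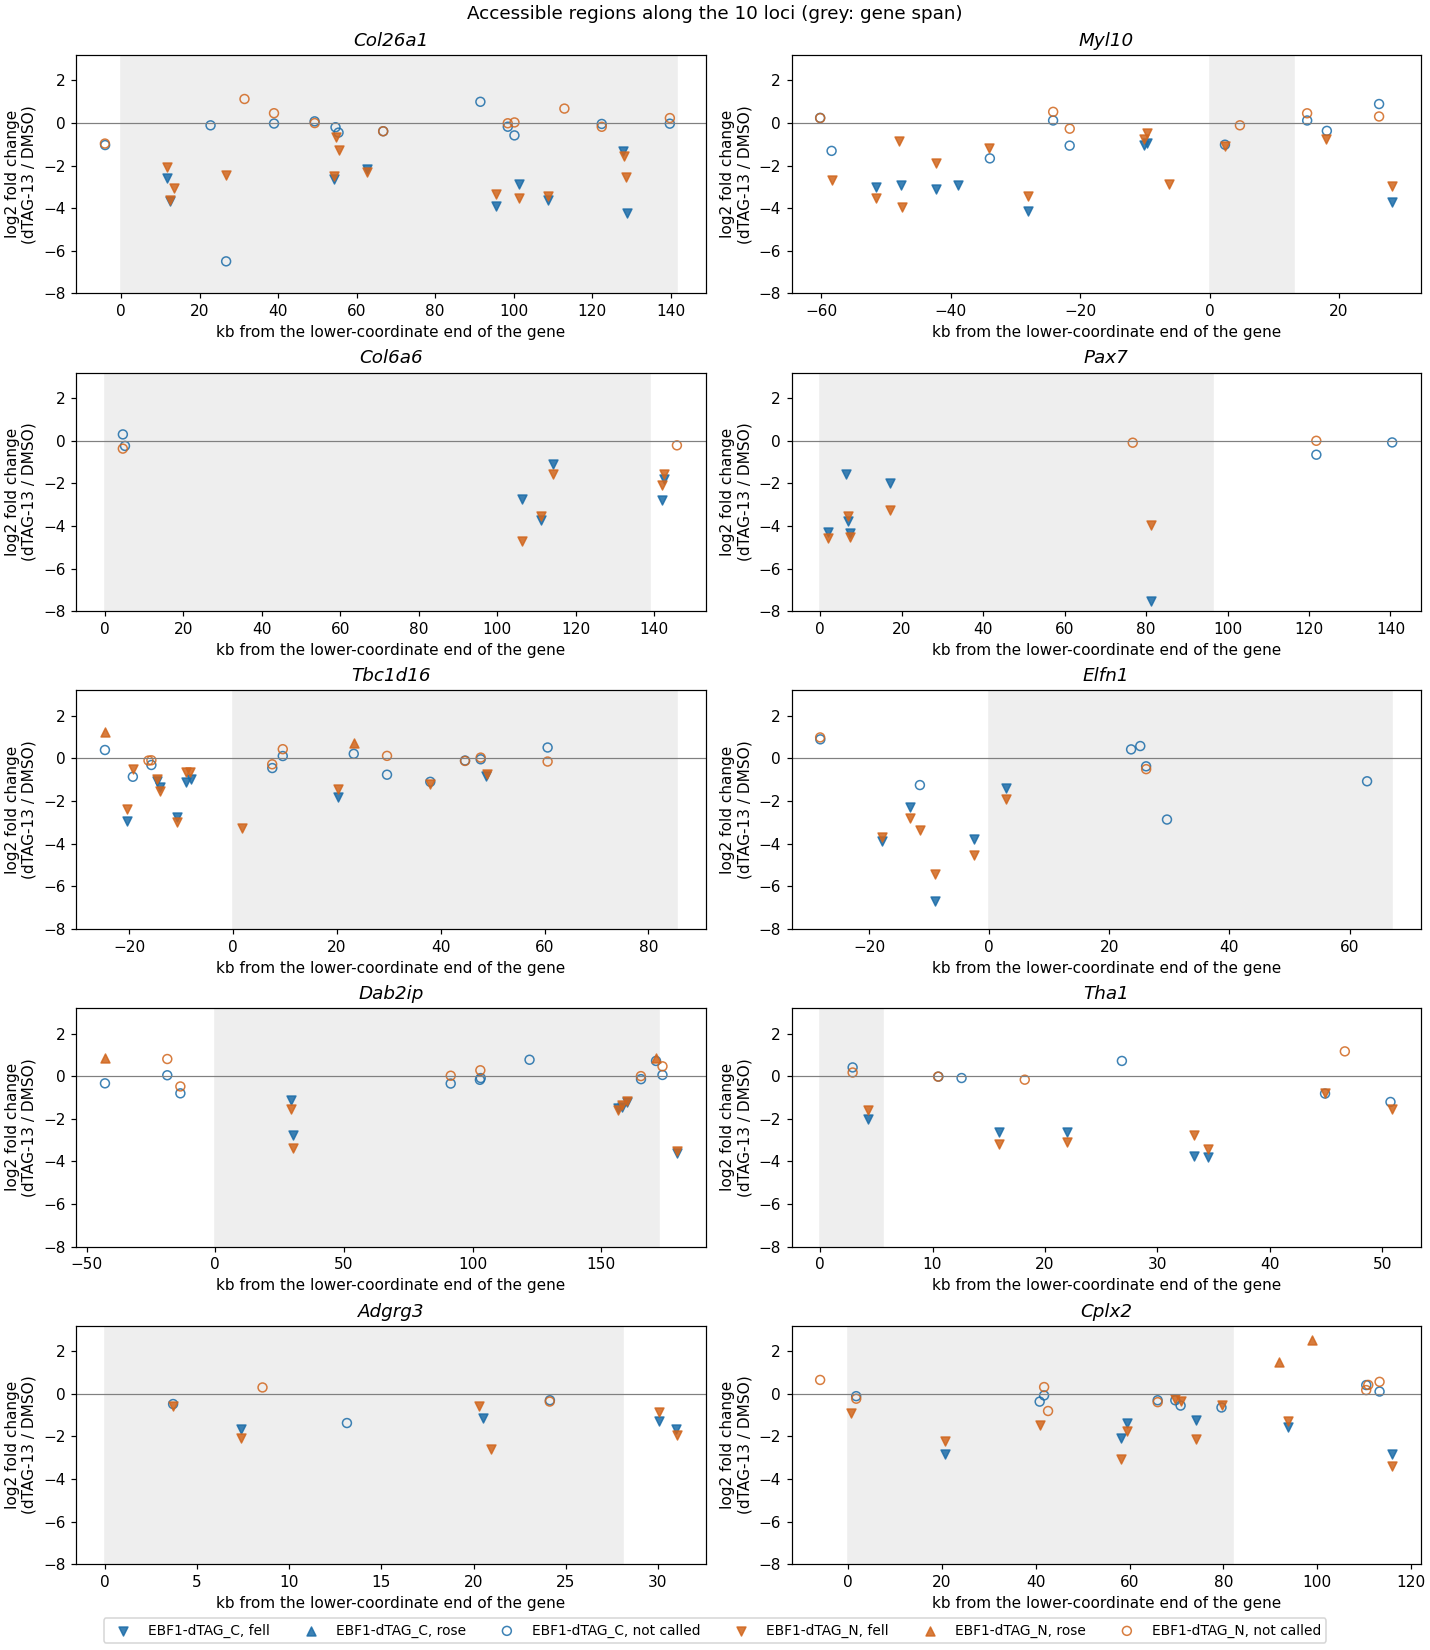
Log2 fold change (dTAG-13 over DMSO, vertical axis, from the authors' deposited tables) of each region along the 10 loci, by distance in kb from the lower-coordinate end of the gene, with the gene span in grey. Filled triangles down fell, triangles up rose and open circles were not called. Most falls sit at the same positions in both lines, most of them between -1 and -5, with uncalled regions near 0 between them at most genes.

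Falls were spread along the loci and mixed with regions that did not fall. The next region on either side of a falling one also fell in 60 of 118 cases in EBF1-dTAG_C (50.8%). Beside regions that did not fall, 58 of 130 neighbours (44.6%) fell. In EBF1-dTAG_N the shares were 98 of 159 (61.6%) and 61 of 99 (61.6%). At all other genes a neighbour of a falling region fell in 13.6% of cases in EBF1-dTAG_C, against 6.82% beside other regions, and in 29.6% against 18% in EBF1-dTAG_N. Within the 10 loci, neighbours of falling and of other regions thus fell in equal shares in EBF1-dTAG_N. Each neighbouring pair is counted from both of its ends, and these shares lie near the shares of all member regions that fell (46.3% and 59.7%), which the choice of genes set.

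Regions less than 1 kb apart mostly fell together or not at all, at the 10 genes and at all other genes alike. Of 16 neighbouring pairs with centres this close in EBF1-dTAG_C, both fell in 10, neither in 5 and a single one in 1. In EBF1-dTAG_N both fell in 14 of 18 such pairs, neither in 3 and a single one in 1. At all other genes neither fell in 3761 of 4254 such pairs in EBF1-dTAG_C, both in 85 and a single one in 408. In EBF1-dTAG_N neither fell in 3281 of 4811, both in 467 and a single one in 1063. More falls at a gene bring more pairs that fall together, so the choice of genes also raised the counts at the 10 genes.

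The median distance between successive falls of a gene, centre to centre, was 5778 bases over 52 distances in EBF1-dTAG_C, with a range of 399 to 126420 bases. It was 5887 bases over 73 distances in EBF1-dTAG_N, with a range of 430 to 126411 bases. At all other genes the medians were 16051 and 11879 bases. Distances under 5 kb made up 44.2% and 45.2% at the 10 genes and 25.8% and 29.4% elsewhere. All regions, fallen or not, also lay closer together at the 10 genes, with medians of 4838 against 7689 bases and 4314 against 7173 bases. Many falls at a gene bring short distances with them, so these values too are set by the choice of genes.

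**Figure D2:**
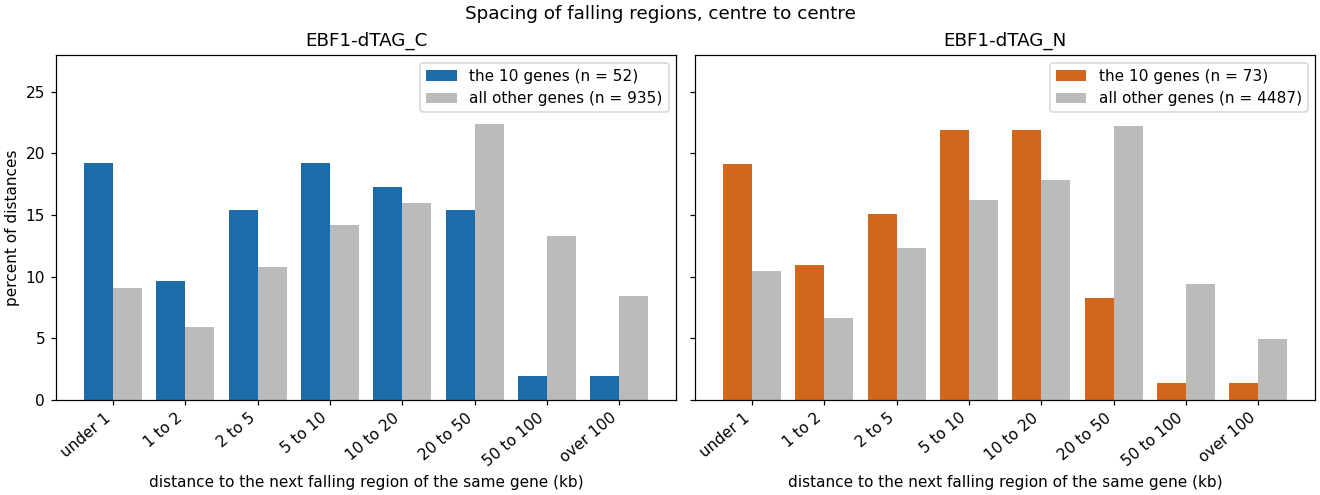
Percent of distances between successive falling regions of the same gene (vertical axis) in classes of distance in kb (horizontal axis), for the 10 genes (colour) and all other genes (grey), in each line. At the 10 genes 10 of 52 and 14 of 73 distances were under 1 kb, and 10 and 8 were over 20 kb.

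The falls did not keep to gene bodies. In EBF1-dTAG_C 33 of 62 falls (53.2%) lay inside the gene span, against 56.1% of all falls of the table, and in EBF1-dTAG_N 46 of 83 (55.4%), against 55.8%. The genes differed in this. All falls of Col26a1 and Pax7 lay inside the gene, whereas most falls of Myl10, Tbc1d16, Elfn1 and Tha1 lay beside it.

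The collagen gene Col26a1 (chr5:136741759-136883376) had falls along most of its length, though the regions nearest its ends were not called in either line. In EBF1-dTAG_C 9 of its 22 regions fell and in EBF1-dTAG_N 13 of 23, over 117.1 kb, with at most 2 falls in a row in EBF1-dTAG_C and 4 in EBF1-dTAG_N. The deepest shared fall of a gene is here the region with the lowest log2 fold change in EBF1-dTAG_C among those falling in both lines. In EBF1-dTAG_N another shared fall was deeper at Col26a1, Myl10, Col6a6, Pax7, Tbc1d16, Adgrg3 and Cplx2. At Col26a1 the deepest shared fall was chr5:136870340-136870728. A peak was listed there in a single DMSO library of EBF1-dTAG_C, at a summit 5.85-fold above the local background, and in neither dTAG-13 library. In EBF1-dTAG_N a peak was likewise listed only in a single DMSO library, at 6.45-fold. These peak enrichments, here and below, are the authors' own value for each peak. The region was weak in both lines and its peak was not found in every control. In the authors' deposited tables its log2 fold change was -4.23 in EBF1-dTAG_C and -2.52 in EBF1-dTAG_N.

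Strong regions of Col26a1 differed in their response. At chr5:136753141-136753650 the summit enrichment in EBF1-dTAG_C was 22.8 and 23.5 with DMSO and 19.1 and 14.9 after dTAG-13. All 4 libraries kept a peak, and both dTAG-13 values lay below both controls. The log2 fold change in the authors' deposited table was -2.59. In EBF1-dTAG_N the peak went from 19.6 and 18.5 to 20 and 21.2 while the log2 fold change in the authors' deposited table was -2.04. The enrichment is a ratio to the background around the peak in its own library, and the table compares read numbers between libraries, so these values need not move together. Less than 1 kb further on, chr5:136754094-136754446 had enrichments of 10.5 and 10.3 with DMSO and no peak after dTAG-13, and -3.68 in the authors' deposited table. By contrast chr5:136863935-136864460, far from both, had 24.4 and 22.5 with DMSO and 20.4 and 22.8 after dTAG-13 in EBF1-dTAG_C. The groups overlapped there, and the log2 fold change in the authors' deposited table was -0.04.

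Myl10 (chr5:136688892-136701857), the myosin light chain gene, is the next protein-coding gene below Col26a1, 39.9 kb away. In EBF1-dTAG_C 8 of its 17 regions fell and in EBF1-dTAG_N 13 of 19, and 7 and 10 of these falls lay below the gene, which is upstream of its annotated starts. At the deepest shared fall, chr5:136660630-136661016, the enrichment was 12.7 and 10.7 with DMSO in EBF1-dTAG_C, with no peak after dTAG-13. It was, in EBF1-dTAG_N, 14.98 and 12.9 with DMSO, again with no peak after dTAG-13. Every control library thus had the peak and no treated library did. In the authors' deposited tables the log2 fold change was -4.14 in EBF1-dTAG_C and -3.42 in EBF1-dTAG_N. Taken with Col26a1, 17 of 39 regions fell and 0 rose in EBF1-dTAG_C, over 233.5 kb, and 26 of 42 fell and 0 rose in EBF1-dTAG_N, over 240.3 kb. Between the first and the last fall of that stretch lay 19 and 14 regions that did not fall. Below Myl10 lies Cux1, where 8 of 39 regions fell in EBF1-dTAG_C, and 11 fell and 7 rose in EBF1-dTAG_N.

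Where a region begins and ends changed what was read at Myl10. The EBF1-dTAG_C table holds chr5:136640659-136641626 as 1 region, with -2.91 in the authors' deposited table. The EBF1-dTAG_N table splits the same stretch in 2, and in the authors' deposited table chr5:136640622-136641102 had -0.83 and chr5:136641232-136641625 had -3.92. In EBF1-dTAG_N the enrichment of the first part was 4.17 and 3.73 with DMSO and 12.1 and 11.8 after dTAG-13. That of the second part was 17.2 and 19.5 with DMSO, with no peak after dTAG-13. The first part kept its peak in all 4 libraries and the second lost it in both treated ones. The same occurred at Adgrg3, where chr8:95037095-95038165 had -1.13 as 1 region by the authors' deposited EBF1-dTAG_C table. Its parts chr8:95037078-95037690 and chr8:95037785-95038310 had -0.59 and -2.60 by the authors' deposited EBF1-dTAG_N table.

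Col6a6 (chr9:105689417-105828246), a chain of the collagen VI microfibril, had few regions, of which most fell. In both lines 5 of 7 regions fell, in an unbroken row of 36.6 kb around the annotated start on the minus strand, 3 inside the gene and 2 above it. At the deepest shared fall by EBF1-dTAG_C, chr9:105800323-105800646, the enrichment in that line was 6.39 and 8.35 with DMSO, with no peak after dTAG-13. It was, in EBF1-dTAG_N, 7.15 and 6.25 with DMSO, with no peak after dTAG-13. Here too the peak was in every control and in no treated library. The log2 fold change in the authors' deposited tables was -3.73 in EBF1-dTAG_C and -3.55 in EBF1-dTAG_N. In EBF1-dTAG_N chr9:105795514-105795815 was deeper, with -4.72 in the authors' deposited table. The strongest region, chr9:105803208-105803856, fell less, by 1.07 as log2 by the authors' deposited EBF1-dTAG_C table, and had a peak in all 4 libraries at 19.2, 17.0, 18.5 and 21.8. The next collagen VI gene, Col6a5, had 3 regions, of which 0 fell in EBF1-dTAG_C and 1 in EBF1-dTAG_N.

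Pax7 (chr4:139737059-139833530) lost nearly all of its peaks. In EBF1-dTAG_C 6 of 8 regions fell and in EBF1-dTAG_N 5 of 7, all inside the gene, and the longest distance between successive falls was 64.1 kb. Most lay near the lower end of the span, which is the end of this minus-strand gene away from its annotated start. The number of peaks at the locus was 7 and 7 in the EBF1-dTAG_C DMSO libraries and 1 and 2 after dTAG-13. It was, in EBF1-dTAG_N, 6 and 6 with DMSO and 1 and 2 after dTAG-13. The groups did not overlap in either line. At the deepest shared fall, chr4:139818229-139818531, the enrichment was 9.67 and 13.4 with DMSO in EBF1-dTAG_C, while EBF1-dTAG_N had 12.05 and 13.9, with no peak in any dTAG-13 library. Its log2 fold change was -7.54 by the authors' deposited table in EBF1-dTAG_C and -3.94 in EBF1-dTAG_N. With a mean abundance of 0.89 log2 CPM by the authors' deposited EBF1-dTAG_C table the first of these folds rests on few reads. The more abundant chr4:139743659-139744038, at 5.37 log2 CPM, had -3.76 by the authors' deposited EBF1-dTAG_C table. Its overlapping region had -3.53 by the authors' deposited EBF1-dTAG_N table.

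Tbc1d16 (chr11:119143043-119228503), of the TBC family of Rab regulators, had many falls and little change in its number of peaks. In EBF1-dTAG_C 8 of 19 regions fell and in EBF1-dTAG_N 11 of 21, with median log2 fold changes of the falls of only -1.22 and -1.19 in the authors' deposited tables. A library held 15 or 16 peaks at the locus with DMSO and 14 after dTAG-13 in EBF1-dTAG_C, and 15 or 16 in either group of EBF1-dTAG_N. In EBF1-dTAG_C 6 falls lay below the gene and 2 inside it. The deepest shared fall was chr11:119122395-119122838, with enrichments of 18.6 and 21.9 with DMSO and no peak and 4.26 after dTAG-13 in EBF1-dTAG_C. In EBF1-dTAG_N the enrichment was 23.7 and 22.6 with DMSO and 6.65 and 8.91 after dTAG-13. Both treated libraries lay below both controls in each line. The log2 fold change in the authors' deposited tables was -2.91 in EBF1-dTAG_C and -2.38 in EBF1-dTAG_N. The number hides losses at single regions. At chr11:119131988-119132377 the enrichment was 5.25 and 4.28 with DMSO in EBF1-dTAG_C, with no peak after dTAG-13, and the log2 fold change was -2.74 in the authors' deposited table. In contrast chr11:119190503-119190940 had 21 and 19.8 with DMSO and 24.0 and 21.8 after dTAG-13 in EBF1-dTAG_C, and -0.04 in the authors' deposited table. About 1 kb above it chr11:119191591-119192094 fell, with -0.81 in the authors' deposited table.

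Elfn1 (chr5:139907591-139974725) had its falls in a short stretch around its start. In EBF1-dTAG_C 5 of 12 regions fell and in EBF1-dTAG_N 6 of 8, over 20.7 kb in both lines, all but 1 of them upstream. Peaks at the locus numbered 12 and 9 with DMSO and 2 and 4 after dTAG-13 in EBF1-dTAG_C. In EBF1-dTAG_N they numbered 7 and 7 with DMSO and 1 and 3 after dTAG-13. The groups were apart in both lines. The deepest shared fall, chr5:139898345-139898602, had a peak in a single DMSO library of EBF1-dTAG_C, at 6.61, and in both of EBF1-dTAG_N, at 7.14 and 5.49, and in no dTAG-13 library. In the authors' deposited tables this region had a log2 fold change of -6.68 in EBF1-dTAG_C and -5.41 in EBF1-dTAG_N. The fall nearest to the annotated start lay 2443 bases from it in EBF1-dTAG_C. The regions more than 20 kb into the gene were not called in either line.

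Dab2ip (chr2:35558446-35730994) had 2 sets of falls with 126.4 kb between them. In EBF1-dTAG_C 6 of 16 regions fell and in EBF1-dTAG_N 6 of 14. One set of 2 lay about 30 kb into the gene, and the other began in the last part of the gene and ended above it. The deepest, chr2:35737569-35738012, lay 6796 bases above the gene and had the highest peaks of the 10 deepest regions, at 29.8 and 29.9 with DMSO in EBF1-dTAG_C, with no peak and 5.56 after dTAG-13. In EBF1-dTAG_N the enrichment was 33.5 and 32.2 with DMSO and 8.28 and 7.87 after dTAG-13. The treated libraries were far below the controls in both lines. The log2 fold change in the authors' deposited tables was -3.59 in EBF1-dTAG_C and -3.49 in EBF1-dTAG_N. The next gene above, Ttll11, had 5 of 15 regions falling in EBF1-dTAG_C, while 10 of 18 fell in EBF1-dTAG_N. Between the sets, chr2:35649770-35650038 had 16.2 and 17.6 with DMSO and 14.2 and 10.2 after dTAG-13, and -0.35 by the authors' deposited EBF1-dTAG_C table, where it was not called.

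Tha1 (chr11:117867949-117873526) is 5.6 kb long and its falls lay upstream, above this minus-strand gene, all but 1 of them. In EBF1-dTAG_C 5 of 11 regions fell over 30.3 kb and in EBF1-dTAG_N 7 of 11 over 46.7 kb. At chr11:117902203-117902669, the deepest, the enrichment was 17.8 and 15.3 with DMSO in EBF1-dTAG_C, while EBF1-dTAG_N had 21.1 and 17.2. No dTAG-13 library had a peak there, in contrast to every control. As log2 fold changes the authors' deposited tables gave -3.77 in EBF1-dTAG_C and -3.40 in EBF1-dTAG_N. The nearest gene on that side is Socs3, a suppressor of cytokine signalling 92.6 kb away, where 1 of 10 regions fell in EBF1-dTAG_C. In EBF1-dTAG_N 2 of its 11 regions fell and 5 rose.

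Adgrg3 (chr8:95017113-95045250) had the smallest of the 10 deepest shared falls, in both lines. In EBF1-dTAG_C 4 of 7 regions fell and in EBF1-dTAG_N 6 of 8. At chr8:95024382-95024637 the enrichment was 5.02 and 7.93 with DMSO in EBF1-dTAG_C, while EBF1-dTAG_N had 9.51 and 10.1, with no peak after dTAG-13. The peak was again in all controls and in no treated library. The log2 fold change in the authors' deposited tables was -1.67 in EBF1-dTAG_C and -2.06 in EBF1-dTAG_N. The region with the highest control peaks in EBF1-dTAG_C, chr8:95046925-95047417, kept peaks of 18.2 and 18.1 against 23.7 and 21.4 with DMSO, with -1.28 by the authors' deposited EBF1-dTAG_C table. The adhesion receptor gene Adgrg1 lies 2.9 kb away, with 2 of 11 regions falling in EBF1-dTAG_C, while 6 of 11 fell in EBF1-dTAG_N.

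Cplx2 (chr13:54301964-54383923) had the widest spacing of falls in EBF1-dTAG_C, with a median distance of 19.53 kb. There 6 of 15 regions fell and in EBF1-dTAG_N 11 of 21. At chr13:54322334-54322890 the enrichment was 26.0 and 25.4 with DMSO and 9.29 and 9.64 after dTAG-13 in EBF1-dTAG_C. In EBF1-dTAG_N it was 29.0 and 26.2 with DMSO and 17.4 and 16.3 after dTAG-13. The peak stayed in every library at a lower height. Its log2 fold changes in the authors' deposited tables were -2.83 for EBF1-dTAG_C and -2.20 for EBF1-dTAG_N. A second strong region, chr13:54417789-54418166, had 21.8 and 20.2 with DMSO and no peak after dTAG-13 in EBF1-dTAG_C, and -2.81 in the authors' deposited table. Close to the start, chr13:54303283-54303991 had 17.3 and 14.0 with DMSO and 8.76 and 11.0 after dTAG-13, but -0.11 by the authors' deposited EBF1-dTAG_C table, where it was not called.

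**Figure D3:**
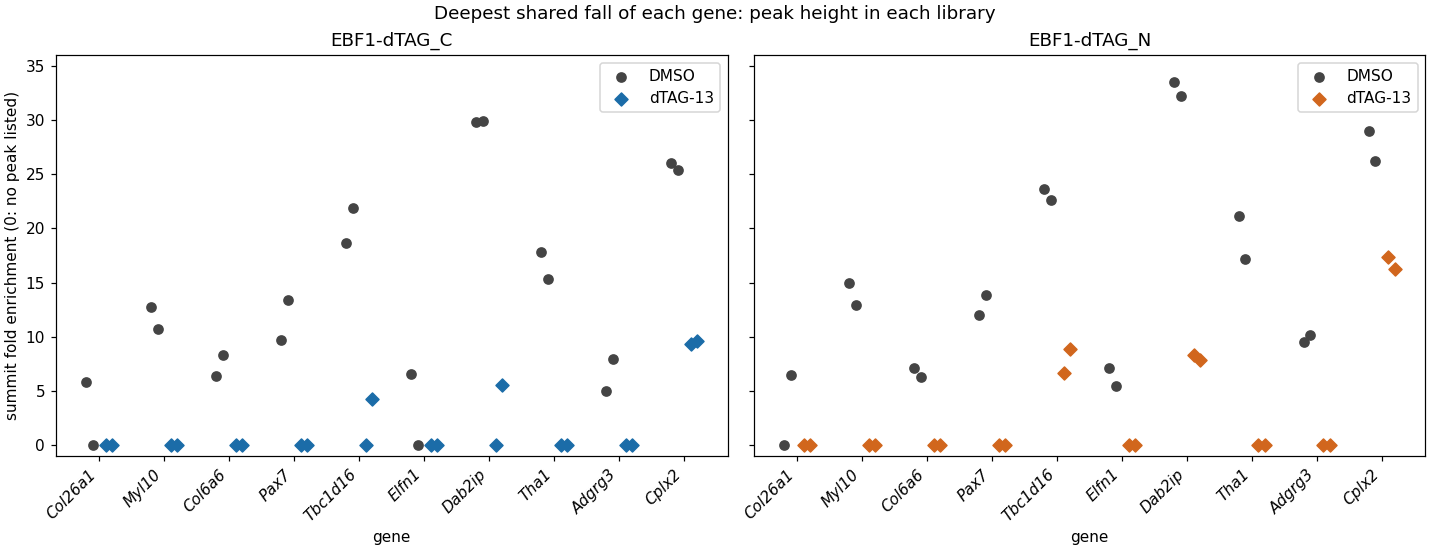
Summit fold enrichment over the local background (vertical axis, the authors' value, 0 where a library lists no peak) at the region of each gene with the lowest log2 fold change in EBF1-dTAG_C among those falling in both lines, in each of the 8 libraries. Dab2ip had the highest control peaks, 29.8 to 33.5, and Cplx2 kept peaks in all dTAG-13 libraries.

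Falls differed in whether a peak was left. Both DMSO lists and no dTAG-13 list held a peak at 37 of 134 regions in EBF1-dTAG_C (27.6%, against 8.46% of all regions) and at 34 of 139 in EBF1-dTAG_N (24.5%, against 10.3%). Among the falls these numbered 31 of 62 (50%) and 33 of 83 (39.8%), against 54.0% and 45.7% of all falls of the tables. Another 15 and 29 falls kept a peak in both dTAG-13 lists, and the share among all falls was not counted. Summed over the 10 genes a library held 114 and 109 peaks with DMSO and 62 and 65 after dTAG-13 in EBF1-dTAG_C, means of 111.5 ± 3.54 and 63.5 ± 2.12 (SD, n = 2), which fell by 43.0%. In EBF1-dTAG_N it held 113 and 112 with DMSO and 69 and 77 after dTAG-13, means of 112.5 ± 0.707 and 73 ± 5.66 (SD, n = 2), which fell by 35.1%. The difference was larger than the spread between libraries in both lines, but the genes were chosen for falls in these same libraries, so it is no independent result. The whole lists were shorter after dTAG-13 too, by the 16.9% and 7.59% given above. The part of list length in the drop was not tested.

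Both dTAG-13 libraries held fewer peaks than both DMSO libraries at 9 of the 10 genes in EBF1-dTAG_C, all but Tha1. Over genes with a peak in that line 16.3% showed this, and over those with at least 6 peaks on average with DMSO 46.6%. In EBF1-dTAG_N it was 7 of 10, all but Tbc1d16, Dab2ip and Adgrg3, against 13.9% and 38.3%. Col26a1 held 19 and 15 peaks with DMSO and 9 and 8 after dTAG-13 in EBF1-dTAG_C, and 19 and 19 against 9 and 12 in EBF1-dTAG_N. Its groups did not overlap in either line. Tha1 held 6 and 9 peaks with DMSO and 7 and 4 after dTAG-13 in EBF1-dTAG_C, so that its groups overlapped.

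**Figure D4:**
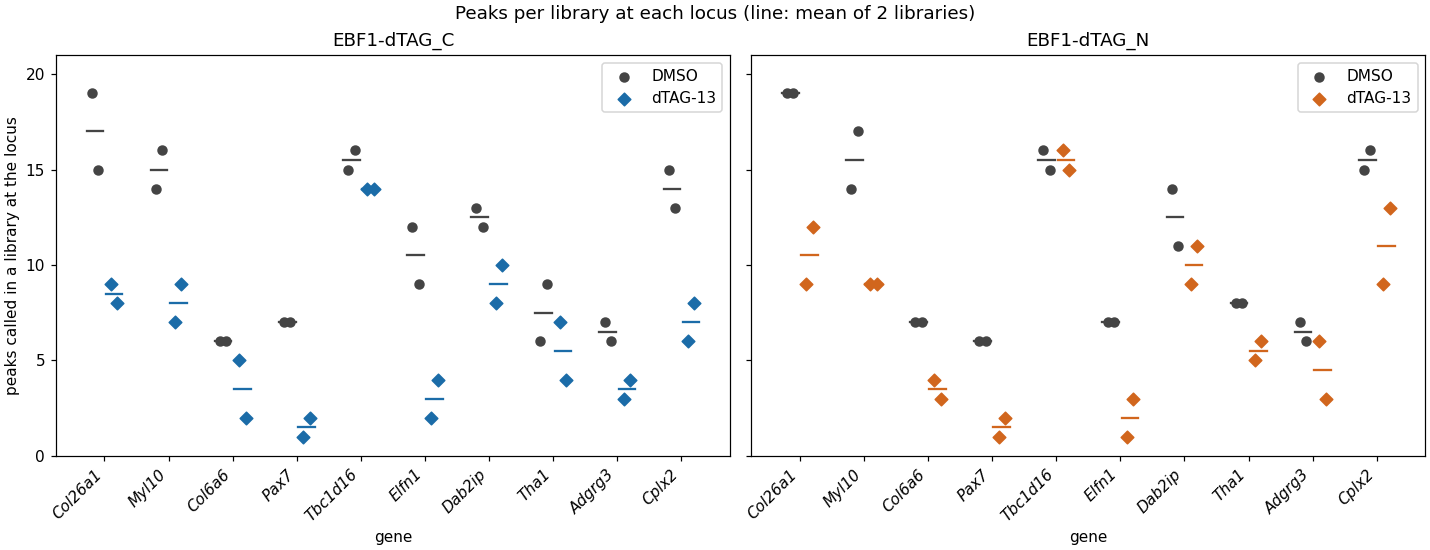
Number of peaks (vertical axis) called in each library at each gene, with DMSO (circles) and dTAG-13 (diamonds), and the mean of 2 libraries as a line. Pax7 fell from 7 and 7 to 1 and 2 peaks in EBF1-dTAG_C, while Tbc1d16 held 15 or 16 in every EBF1-dTAG_N library.

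The lines had 122 overlapping pairs of regions at the 10 genes. Of these 62 fell in both, 39 were called in neither, 17 fell only in EBF1-dTAG_N, and 4 rose only in EBF1-dTAG_N. Over all 43350 pairs the same counts were 3455, 26465, 3890 and 9346. No pair was called in opposite directions, either at the 10 genes or over all pairs. All 17 that fell only in EBF1-dTAG_N had negative folds in EBF1-dTAG_C too, with medians in the authors' deposited tables of -0.82 in EBF1-dTAG_C and -1.06 in EBF1-dTAG_N. The spread in the EBF1-dTAG_N table was pooled over regions. Read against the degrees of freedom recovered for EBF1-dTAG_C, 81 regions of EBF1-dTAG_N fell, from 83, and 60 falls were shared. A call in 1 line alone does not show a difference. The difference itself was tested approximately after each table was centred on its median. At an unadjusted p under 0.05 by this test 18 of the 122 pairs differed, and the share over all pairs was not counted at that threshold. After adjustment 0 of the 122 pairs passed (lowest adjusted p = 0.266), against 0.00231% of all pairs. A p that misses the threshold does not show that the lines acted alike. The genes were picked for falls in both lines, and only 1 of all 43350 pairs passed. This test therefore cannot decide whether the lines differed at these genes. Across the pairs the log2 fold changes had a Pearson r of 0.87, and of 0.84 over all 43350 pairs of the tables. Regions are not independent samples. Of the 62 EBF1-dTAG_C falls 60 (96.8%) overlapped an EBF1-dTAG_N fall, near the 95.9% over the whole table. From the other side 62 of the 83 EBF1-dTAG_N falls (74.7%) were shared, against 33.7%, and the genes were picked for shared falls.

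**Figure D5:**
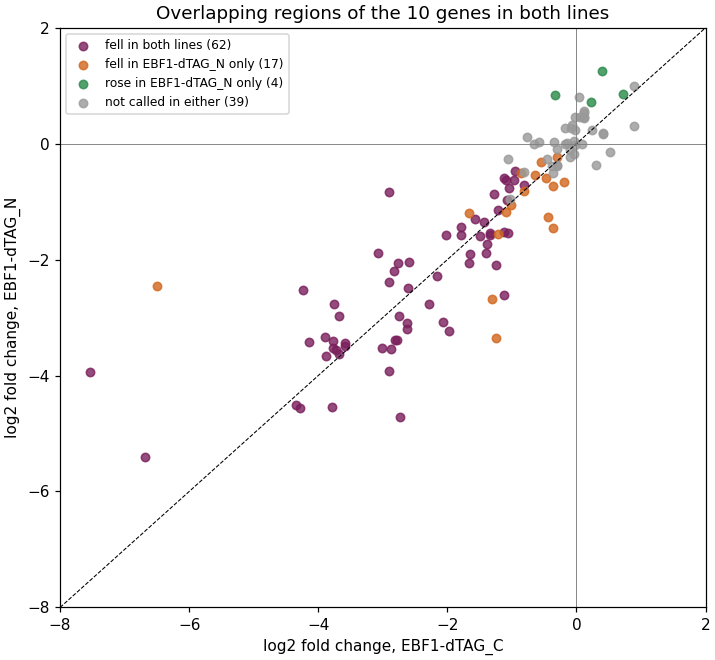
Log2 fold change (from the authors' deposited tables) of the 122 overlapping region pairs, EBF1-dTAG_C on the horizontal and EBF1-dTAG_N on the vertical axis, with equality as a broken line and colour for the calls. The 62 pairs that fell in both lie around the line, and the 17 that fell in EBF1-dTAG_N alone lie below 0 on both axes.

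Few regions rose. The 6 rising regions, all in EBF1-dTAG_N, lay at Tbc1d16, Dab2ip and Cplx2, 2 at each. The Tbc1d16 region chr11:119166093-119166423 had enrichments of 7.73 and 7.67 with DMSO and 17.2 and 16.98 after dTAG-13, and a log2 fold change of 0.72 in the authors' deposited table. Both treated libraries exceeded both controls. At chr11:119118205-119118407 of Tbc1d16 a peak was listed in a single dTAG-13 library only, at 7.05, with 1.25 in the authors' deposited table. The Dab2ip regions chr2:35515354-35515679 and chr2:35729554-35729867 had 0.84 and 0.86 in the authors' deposited table. In EBF1-dTAG_C the overlapping regions had -0.34 and 0.72 in the authors' deposited table, and neither was called. The Cplx2 regions chr13:54393697-54393898 and chr13:54400662-54400911 had 1.52 and 2.55 in the authors' deposited table and met no region of the EBF1-dTAG_C table. Both had a peak in a single dTAG-13 library. Centred on the median of the table, the Dab2ip region at chr2:35515354-35515679 (adjusted p = 0.0589) and the Cplx2 region at chr13:54400662-54400911 (adjusted p = 0.0836) no longer passed. Read against the degrees of freedom of EBF1-dTAG_C, neither Cplx2 region passed (adjusted p = 0.0591 and 0.0990 by Benjamini-Hochberg over the deposited edgeR table).

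Regions of the genes beside these loci were described in the same way. The 18 protein-coding genes next to the 10 on either side had 25 falls among 154 regions in EBF1-dTAG_C (16.2%, against 6.62% of all regions) and 53 among 167 in EBF1-dTAG_N (31.7%, against 18.5%). They had 1 rise in EBF1-dTAG_C, where 0.308% of all regions rose, and 33 in EBF1-dTAG_N, where 18.8% did. Of these genes 9 had no fall in EBF1-dTAG_C and 6 had none in EBF1-dTAG_N. The numbers of falls at Cux1, the homeobox gene below Myl10, and at Ttll11, a tubulin ligase gene above Dab2ip, were the highest. These are counts and not shares of regions, and Cux1 also held the most regions, 39 in each line.

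Relatives of the 10 genes were compared through 9 lists of 66 genes of the same families or pathways. In EBF1-dTAG_C 11 of the 50 with a region (22.0%) had a fall, against 16.3% of all genes, and 1 had a rise, against 1.00%. In EBF1-dTAG_N 21 of 49 (42.9%) had a fall, against 34.2%, and 22 had a rise (44.9%), against 41.2%. Among the collagen relatives 2 of 5 genes had a fall in EBF1-dTAG_C, Emid1 with 2 of 8 regions and Col6a4 with 1 of 3. Of 8 further TBC family genes 3 had a fall in EBF1-dTAG_C, led by Tbc1d5 with 3 of 27 regions. No fall was called in EBF1-dTAG_C at the 3 genes with a region on the Pax list, which leaves out the B lineage factor Pax5, whereas in EBF1-dTAG_N 1 of 3 had a fall. The list of Ras GTPase activators, which also holds the endocytic adaptor gene Dab2, had a fall at 0 of 9 genes and a rise at 1 in EBF1-dTAG_C. In EBF1-dTAG_N 4 of its 6 genes with a region had a fall and 6 had a rise. Of 4 genes of threonine and glycine metabolism 0 had a fall in EBF1-dTAG_C, and 1 had a fall and 1 a rise in EBF1-dTAG_N. Of 11 myosin light chain genes 1, Myl9, had a fall in EBF1-dTAG_C, and 2 had a fall and 3 a rise in EBF1-dTAG_N. Of 4 adhesion receptor genes 2 had a fall in EBF1-dTAG_C, with 2 of 11 regions at Adgrg1. In EBF1-dTAG_N 2 of 5 had a fall and 3 a rise. Of 5 complexin and SNARE genes 2 had a fall in EBF1-dTAG_C, Cplx4 and Stx1a with 1 region each. In EBF1-dTAG_N 3 of 6 had a fall and 2 a rise. Elfn2, a close relative of Elfn1, was the only gene of its list with a region. It had 1 fall among 5 regions in EBF1-dTAG_C, and 1 fall and 2 rises among 5 in EBF1-dTAG_N.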

How the data were processed

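The titles give each ATAC-seq library its line and treatment, 2 per group. The submitters' processing notes name the mm10 (GRCm38) build, edgeR 3.32.0, MACS2 2.2.7.1, deepTools 3.3.2, SAMtools 1.10 and Bowtie2 2.3.5.1. The sources used here do not give read filters, the shift for transposase cuts, library scaling or read depth. The authors deposited 8 peak lists, 1 per library, with −log10 p-values and q-values, a fold enrichment of the summit and a score. They also deposited a table of dTAG-13 against DMSO for each line, with a p-value, its adjusted p-value, an F score, log2 CPM and a log2 fold change per region, and no value per library.

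Repeated entries (8 and 12) were counted once, and adjusted p-values were recomputed over all regions. Denominator degrees of freedom recovered from F and p were 11.2 (EBF1-dTAG_C) and 110386 (EBF1-dTAG_N), so in EBF1-dTAG_N regions shared a pooled spread and the p-values of the lines cannot be set side by side. Regions went to the nearest protein-coding span within 100 kb. Regions of the lines, and peaks and regions, were matched where they shared at least 1 bp, and peaks were counted at a gene by their centre. An approximate standard error, the absolute log2 fold change over the square root of F, served for centring on the table median and for the difference between lines. Steps were tested on simulated data. Python 3.11.15, pandas 2.3.3 and scipy 1.17.1 were used. The genes, the lists of relatives and the comparisons were chosen with earlier results of these data known. Regions named are the lowest log2 fold change in EBF1-dTAG_C among shared falls, all rising regions, and regions at gene starts, with others chosen after their values were seen, and of flanking and related genes at most 2 a list with the most falls. Alternatives were other call thresholds, distances, overlaps, peak cutoffs, centring, and leaving out each library of the peak counts.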

Additional observations from a re-analysis of the deposited data

How the results depend on the processing

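No result reversed its direction. Falls at the 10 genes ranged from 48 to 65 in EBF1-dTAG_C and from 65 to 87 in EBF1-dTAG_N over all alternatives run, and falls in both lines from 47 to 63. The 6 rising regions of EBF1-dTAG_N became 3 at an adjusted p under 0.01 and 3 where changes also had to be 2-fold. With that minimum fold the share of neighbours of falls that fell became 50% in EBF1-dTAG_N, from 61.6%. The difference in peaks between dTAG-13 and DMSO libraries, -48 in EBF1-dTAG_C, was -45 for peaks with −log10 q of at least 5 and -37.5 within 20 kb of a gene, and in EBF1-dTAG_N -39.5 became -32 within 20 kb. Leaving out each library in turn gave differences from -50.5 to -45.5 in EBF1-dTAG_C and from -43.5 to -35.5 in EBF1-dTAG_N. Regions with a peak in every DMSO list and in no dTAG-13 list then numbered 40 to 49 and 38 to 47, from 37 and 34, since fewer lists have to meet the condition. Shared falls of Myl10 went from 7 to 4 at an adjusted p under 0.01 and to 3 within 20 kb, those of Tha1 from 5 to 3 within 20 kb, and those of Tbc1d16 from 8 to 4 with the minimum fold. No paired analysis was possible because the region tables hold no value per library and the replicate numbers inside the peak lists differ from those of the titles. Summit enrichment and the absence of a peak depend on library depth, which is unknown, so a missing peak does not show closed chromatin.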
